A study of Homo sapiens with 24 samples.

Results

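Cathepsin genes encode the main proteases of the lysosome, and 10 of them (CTSA, CTSB, CTSC, CTSD, CTSF, CTSH, CTSK, CTSS, CTSW and CTSZ) are described here across 4 cell lines and 3 treatments. They were chosen by gene symbol, with earlier results of these data known, and make up 10 of the 30373 rows of the deposited expression table. Acute myeloid leukaemia (AML) gave 3 of the lines (Kasumi-1, MV-4-11 and SKM-1), while NCI-H1299 was derived from a non-small cell carcinoma of the lung. Each line was given ABBV-075 at 100 nM, ABBV-744 at 200 nM or DMSO, the solvent, for 24 h, and poly-A RNA was sequenced from 2 libraries of each of the 12 groups. ABBV-075 blocks both bromodomains of the BET proteins, readers of acetylated histones that help to transcribe genes, and ABBV-744 is selective for the second bromodomain, the property that the series title names. The doses differ, so a comparison of the compounds holds at these doses only. No label says whether both libraries of a group were grown as separate cultures; if they were not, a p-value reflects technical spread alone.

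Cathepsins are made as inactive precursors, reach the lysosome mostly through mannose 6-phosphate tags, and are activated by its low pH. Most are cysteine proteases, while CTSD is an aspartic protease and CTSA a serine carboxypeptidase. In myeloid cells they digest engulfed material, prepare antigens for class II molecules and, in the case of CTSC, activate the serine proteases of the granules. Small proteins called cystatins and some serpins hold the cysteine cathepsins in check.

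Values are FPKM, fragments scaled to transcript length and to the size of the library, so levels of different genes can be set side by side per length. The depth of the libraries is unknown, and the summed FPKM per library is used only as a scale. A gene was tested in a line where at least 2 of its 6 libraries reached 1 FPKM. That held for 9 of the 10 members in SKM-1 and Kasumi-1, for 10 in MV-4-11 and for 8 in NCI-H1299. CTSW stayed at or below 0.757 FPKM in every library of the other 3 lines, and CTSS at or below 0.0705 FPKM in NCI-H1299. Differences are on the log2(FPKM + 1) scale, which understates the change of low genes, and a gene was called at a Benjamini-Hochberg adjusted p under 0.05 from limma over all genes tested. For 1 gene in 2 against 2 libraries the smallest p of an exact permutation test is 0.333, so the calls depend on limma, which pools the spread of 12 groups and many genes. A lack of overlap between treated and DMSO libraries is common and marks no gene out. It held for 68.2%, 77.8%, 72.6% and 85.8% of all genes tested with ABBV-075 in SKM-1, MV-4-11, Kasumi-1 and NCI-H1299. With ABBV-744 it held for 50.6%, 58%, 68.2% and 65.6%. In bulk RNA, fewer cells of a type and less RNA per cell cannot be told apart.

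The lines matched their labels in broad terms. The 6 leukaemia markers, among them PTPRC and SPI1, summed to 736 to 6511 FPKM in the AML lines and to 3.37 to 6.52 FPKM in NCI-H1299, where the 6 epithelial and mesenchymal markers summed to 2215 to 3125 FPKM. EPCAM, of that second list, was at or below 0.206 FPKM in NCI-H1299 and reached 70.7 FPKM in Kasumi-1. B cell markers summed to at most 1.82 FPKM in any library and erythroid markers to at most 0.120 FPKM, while T and NK cell markers reached 43.7 FPKM in MV-4-11, nearly all of it NKG7. HEXIM1, a gene known to respond to BET inhibitors, rose with both compounds in every line, by 1.93 to 2.97 on the log2 scale with ABBV-075 and by 0.61 to 1.01 with ABBV-744. SERPINI1, another such gene, rose by 1.92 to 4.02 with ABBV-075 in each line and by 1.35 in MV-4-11 and 2.06 in Kasumi-1 with ABBV-744. MYC, which BET inhibitors are known to lower, fell by 5.80 in SKM-1, by 1.15 in MV-4-11 and by 3.06 in Kasumi-1 with ABBV-075 and was not called in NCI-H1299 (-0.31); with ABBV-744 it fell by 0.85 in SKM-1 and by 1.02 in Kasumi-1. One pair stood apart from the others. The SKM-1 DMSO libraries differed with an SD of 0.637 on the log2 scale over genes, against 0.451 for Kasumi-1 ABBV-075 and 0.186 to 0.295 for the other 10 groups, and mitochondrial genes took 9.13% and 22.3% of their summed FPKM.

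Of the 10 members, 6 have a promoter in the RefSeq table used here (CTSA, CTSC, CTSD, CTSF, CTSH and CTSZ). The hexamer CACGTG, which is its own reverse complement, is the core that MYC and the MiT factors TFEB and TFE3 are known to bind, the MiT factors at lysosomal genes in particular. It occurs in 3 of these 6 windows of 300 bases (250 before and 50 after the start), against 7.26% of the 35116 windows in the table. The 130 bases before the starts of the 3 genes that hold it, CTSA, CTSD and CTSF, are shown on the GRCh38.p14 build to place the matches, with CACGTG in capitals. With ABBV-075 all 3 rose in SKM-1, as did CTSB and CTSK, which are not among the 6. In Kasumi-1 CTSD fell and the other two were not called, in MV-4-11 none was called, and in NCI-H1299 CTSF alone was. CTSA has it at 42 and 25 bases before the start on chr20:45891205-45891334 (plus strand), CTSD at 47 bases on chr11:1763928-1764057 (minus strand), and CTSF at 123 and 51 bases on chr11:66568607-66568736 (minus strand).
CTSA: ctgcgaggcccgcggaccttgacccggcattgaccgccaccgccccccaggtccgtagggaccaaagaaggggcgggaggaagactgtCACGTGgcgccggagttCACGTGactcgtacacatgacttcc
CTSD: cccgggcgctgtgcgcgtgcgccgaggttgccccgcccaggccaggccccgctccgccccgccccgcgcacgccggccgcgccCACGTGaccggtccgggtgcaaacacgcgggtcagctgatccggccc
CTSF: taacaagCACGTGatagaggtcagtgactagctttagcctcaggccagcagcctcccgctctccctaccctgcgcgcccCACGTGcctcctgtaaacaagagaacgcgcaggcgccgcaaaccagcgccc
The longer word TCACGTGA was found in the CTSA window, where it covers the copy nearer the start, in none of the other 5 and in 0.98% of the table. These matches describe letters in the window and say nothing of what binds there.

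Cathepsins differed between the lines in DMSO, as did most genes. In all, 6 pairs of DMSO groups were compared, and the count of cathepsins called in either direction is given beside the share of all genes called. SKM-1 against MV-4-11 gave 6 of 10 called (62% of all genes tested), SKM-1 against Kasumi-1 gave 4 of 9 (61.3%) and SKM-1 against NCI-H1299 gave 6 of 9 (69%). MV-4-11 against Kasumi-1 gave 7 of 10 (61.5%), MV-4-11 against NCI-H1299 gave 9 of 10 (70.4%) and Kasumi-1 against NCI-H1299 gave 8 of 9 (69.4%). Counts of so few genes beside such shares are no result about cathepsins as a group. A gene that is off in 1 line passed the filter through the other line and had to differ, as CTSS and CTSW did. Without SKM-1 DMSO replicate 1 the count for SKM-1 against Kasumi-1 was 7.

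CTSZ, a lysosomal carboxypeptidase also called cathepsin X, averaged 91.6 ± 13.8 FPKM in SKM-1, 91.5 ± 9.49 FPKM in MV-4-11 and 89.9 ± 8.07 FPKM in Kasumi-1, against 7.86 ± 0.187 FPKM in NCI-H1299 (SD, n = 2 each). The 3 AML lines differed by at most 0.0249 on the log2 scale and lay 3.36 to 3.38 above NCI-H1299. CTSS, the protease that trims the invariant chain of class II molecules, had 14.1 and 13.5 FPKM in SKM-1, 14.6 and 12.4 FPKM in MV-4-11 and 7.76 and 7.82 FPKM in Kasumi-1, against 0.0572 and 0.0628 FPKM in NCI-H1299. SKM-1 and MV-4-11 did not differ in CTSS beyond their spread (0.03, limma, adjusted p = 0.808), and both lay above Kasumi-1. CTSH, an aminopeptidase, was likewise ordered SKM-1 (13.4 FPKM), MV-4-11 (10.1), Kasumi-1 (3.05) and NCI-H1299 (1.55) by its means, and the first pair in that order was not called.

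CTSC was the largest of the 10 in Kasumi-1 and SKM-1, with 37.8% and 33.3% of the summed cathepsin FPKM, against 20.4% in MV-4-11 and 21.2% in NCI-H1299. CTSA, which also shields the sialidase NEU1 inside the lysosome, ran the other way, with 26.5% of the sum in NCI-H1299 against 5.07% in SKM-1. Its mean was 56.7 FPKM in NCI-H1299, 41.4 FPKM in MV-4-11, 26.1 FPKM in Kasumi-1 and 19.8 FPKM in SKM-1. Neither the highest pair nor the lowest pair in that order was called. The SKM-1 DMSO libraries, the pair that stood apart, had 25.5 and 14.1 FPKM of CTSA and 161 and 99.0 FPKM of CTSC. CTSD, the major aspartic protease, ranged from 49.5 FPKM in NCI-H1299 to 105 FPKM in Kasumi-1, and CTSB, a cysteine protease that also clips dipeptides, from 18.5 FPKM in Kasumi-1 to 64.8 FPKM in MV-4-11. CTSF, a widely expressed cysteine protease, was lowest in MV-4-11 at 2.34 FPKM and lay between 8.49 and 11.96 FPKM in the other lines. CTSK, the collagen-degrading protease of osteoclasts, was low everywhere, between 1.07 and 1.61 FPKM, and CTSW, known from cytotoxic lymphocytes, had 3.06 and 3.36 FPKM in MV-4-11 alone.

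**Figure D1:**
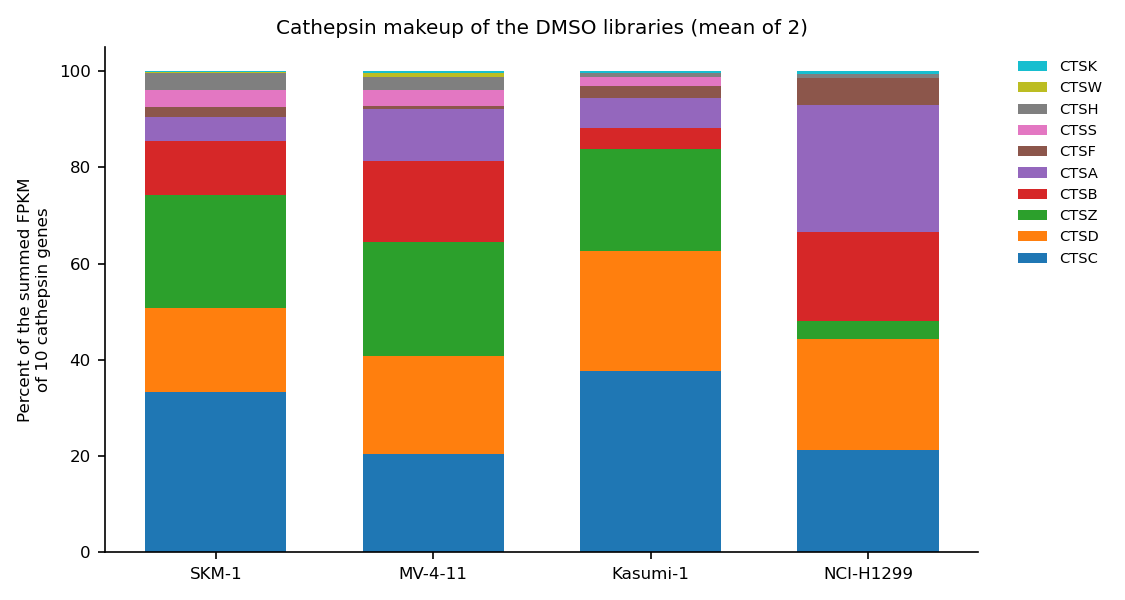
Share of each cathepsin in the summed FPKM of the 10 genes (percent, vertical axis) in the mean of the 2 DMSO libraries of each line (bars). CTSC takes 37.8% in Kasumi-1 and 33.3% in SKM-1, and CTSZ takes 3.67% in NCI-H1299 against 21.3% to 23.7% in the AML lines.

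The compounds changed the 10 genes in both directions, and both compounds were set against the same DMSO libraries in each line. In SKM-1, ABBV-075 raised 5 of 9 tested cathepsins (32% of all genes tested rose) and lowered 2 (29.2%), and ABBV-744 raised 3 (14.9%) and lowered 0 (12.5%). The 3 were CTSB, CTSK and CTSZ, 5 of the 9 had an unadjusted p under 0.05, and after scaling to the non-mitochondrial sum 2 were higher and 1 lower (CTSH). A fit of SKM-1 alone called 0 cathepsins and 260 of 13154 genes with ABBV-744, against 3604 genes in the main fit. In MV-4-11, ABBV-075 raised 2 of 10 (20.3%) and lowered 2 (22.1%), and ABBV-744 raised 1 (4.61%) and lowered 1 (6.75%). In Kasumi-1, ABBV-075 raised 2 of 9 (24.7%) and lowered 4 (32.6%), and ABBV-744 raised 2 (8.69%) and lowered 3 (15%), which became 3 and 2 when libraries were centred on their median. In NCI-H1299, ABBV-075 raised 2 of 8 (20.6%) and lowered 2 (26.5%), and ABBV-744 raised 0 (1.4%) and lowered 0 (3.95%), with 2 of the 8 at an unadjusted p under 0.05. Counts this small next to such backgrounds do not set the cathepsins apart from other genes. The median log2 difference of the tested members with ABBV-075 was 0.61 in SKM-1 (0.05 over all genes), 0.02 in MV-4-11 (-0.01), -0.28 in Kasumi-1 (-0.09) and 0.01 in NCI-H1299 (-0.06).

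**Figure D2:**
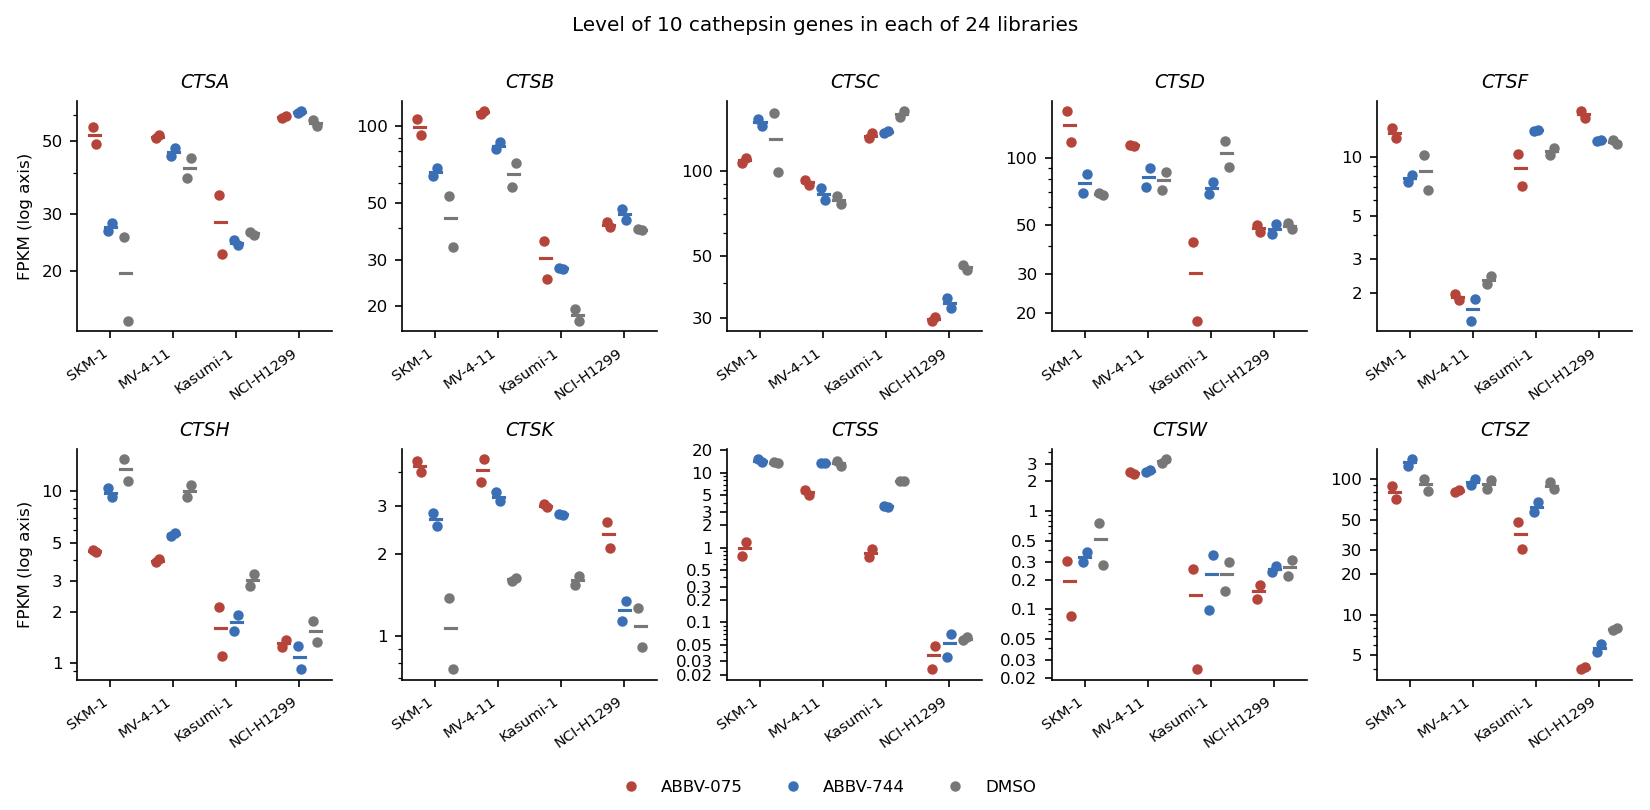
FPKM of each cathepsin (log axis, range set per panel) in each of the 24 libraries (points), with the mean of the 2 libraries of a group (bars) in 4 lines under ABBV-075, ABBV-744 and DMSO. CTSS fell to 0.765 and 1.19 FPKM in SKM-1 with ABBV-075, against 14.1 and 13.5 FPKM in DMSO.

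CTSS showed the largest change of the 10 genes and separated the compounds. In SKM-1 it had 0.765 and 1.19 FPKM with ABBV-075 and 15.2 and 13.9 FPKM with ABBV-744, against 14.1 and 13.5 FPKM in DMSO. In MV-4-11 it had 5.96 and 5.08 FPKM with ABBV-075 and 13.5 and 13.7 FPKM with ABBV-744, against 14.6 and 12.4 FPKM in DMSO. In Kasumi-1 it had 0.746 and 0.957 FPKM with ABBV-075 and 3.65 and 3.50 FPKM with ABBV-744, against 7.76 and 7.82 FPKM in DMSO. The ABBV-075 libraries lay below DMSO in each AML line without overlap, while the ABBV-744 libraries did so in Kasumi-1 and overlapped DMSO in the other pair of lines. Of all genes, 68.2%, 77.8% and 72.6% did not overlap DMSO with ABBV-075 in SKM-1, MV-4-11 and Kasumi-1. The log2 difference with ABBV-075 was -2.91 ± 0.11 in SKM-1 (SE, limma, adjusted p = 9.8e-12), -1.15 in MV-4-11 (adjusted p = 6.34e-07) and -2.25 in Kasumi-1 (adjusted p = 3.08e-10). With ABBV-744 CTSS fell by 0.94 in Kasumi-1 (limma, adjusted p = 2.83e-05), and the difference was 0.07 in SKM-1 (95% interval -0.17 to 0.31) and 0.01 in MV-4-11 (-0.22 to 0.25). These calls held under every alternative run. Among all genes tested, 29.2%, 22.1% and 32.6% fell and 32%, 20.3% and 24.7% rose with ABBV-075 in SKM-1, MV-4-11 and Kasumi-1. With ABBV-744, 12.5%, 6.75% and 15% fell and 14.9%, 4.61% and 8.69% rose. Beside these shares, 4 of the 6 leukaemia markers fell and 1 rose with ABBV-075 in SKM-1 and in Kasumi-1, and 1 fell in MV-4-11. With ABBV-744, 3 fell and 1 rose in Kasumi-1, 1 fell and 2 rose in SKM-1, and 0 were called in MV-4-11. The summed level of that list was 782 to 1040 FPKM with ABBV-075 and 2280 to 2723 FPKM with ABBV-744, against 3065 to 4658 FPKM in DMSO, in SKM-1; 736 to 742 and 956 to 1083 FPKM, against 1003 to 1221 FPKM, in MV-4-11; and 3405 to 5779 and 5789 to 6511 FPKM, against 5034 to 5481 FPKM, in Kasumi-1. In Kasumi-1 that sum is mostly MPO, a granule enzyme, at 3313 to 6240 FPKM. MPO also weighs on the sum in SKM-1, where it ran from 18.0 to 3374 FPKM over the libraries of the line. In MV-4-11 it stayed at 2.18 to 5.23 FPKM. The part of these markers in the CTSS result was not tested.

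CTSK rose with ABBV-075 in all 4 lines and with ABBV-744 in the 3 AML lines. In SKM-1 it had 4.37 and 3.98 FPKM with ABBV-075 and 2.82 and 2.52 FPKM with ABBV-744, against 1.38 and 0.757 FPKM in DMSO. In MV-4-11 it had 3.66 and 4.43 FPKM with ABBV-075 and 3.36 and 3.12 FPKM with ABBV-744, against 1.59 and 1.63 FPKM in DMSO. In Kasumi-1 the values were 3.03 and 2.96 FPKM with ABBV-075 and 2.80 and 2.78 FPKM with ABBV-744, against 1.54 and 1.66 FPKM in DMSO. Every treated library of these lines lay above its DMSO pair, and 50.6% to 77.8% of all genes did not overlap DMSO in these comparisons. In NCI-H1299 the ABBV-075 libraries, at 2.62 and 2.10 FPKM, lay above the DMSO libraries at 1.27 and 0.915 FPKM, and the ABBV-744 libraries, at 1.14 and 1.35 FPKM, overlapped them. The log2 difference with ABBV-075 was 1.34 ± 0.13 in SKM-1, 0.95 in MV-4-11, 0.62 in Kasumi-1 and 0.69 in NCI-H1299 (SE 0.13 each, limma, adjusted p = 3.91e-07, 3.24e-05, 0.000904 and 0.000564 in that order). With ABBV-744 it was 0.84 in SKM-1, 0.70 in MV-4-11 and 0.55 in Kasumi-1 (limma, adjusted p = 0.000276, 0.00249 and 0.00753 in that order), and 0.10 in NCI-H1299 (95% interval -0.18 to 0.39, adjusted p = 0.839). The Kasumi-1 call with ABBV-744 was lost without Kasumi-1 DMSO replicate 1 (0.51, adjusted p = 0.0588), and fits of single lines lost it (adjusted p = 0.0646) and the SKM-1 call (0.0813). With a pseudocount of 0.1 FPKM the CTSK difference was 1.30 in SKM-1 with ABBV-744 and 1.06 in NCI-H1299 with ABBV-075.

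CTSS and CTSK lie next to each other on chromosome 1 in the RefSeq annotation, with HORMAD1, a meiotic gene, on the far side of CTSS and ARNT, a partner of hypoxia and dioxin sensors, on the far side of CTSK. With ABBV-075 each call for CTSS or HORMAD1 was a fall and each call for CTSK or ARNT a rise. CTSS and HORMAD1 were both tested in MV-4-11 alone. Among all genes tested with ABBV-075, 29.2%, 22.1%, 32.6% and 26.5% fell in SKM-1, MV-4-11, Kasumi-1 and NCI-H1299. In the same order 32%, 20.3%, 24.7% and 20.6% rose. An effect on the region was not tested, and genes next to the other members are not described here. HORMAD1 had 14.3 and 11.7 FPKM with ABBV-075, against 30.7 and 25.2 FPKM in DMSO, in MV-4-11 and fell by 1.05 there and fell by 1.28 in NCI-H1299, and it was not tested in SKM-1 or Kasumi-1. ARNT rose by 0.67 in SKM-1, by 0.39 in MV-4-11 and by 0.39 in Kasumi-1 (limma, adjusted p = 5.22e-05, 0.00823 and 0.00522 in that order), and the difference in NCI-H1299 was 0.24 (adjusted p = 0.0795). Neither neighbour was called with ABBV-744 in any line in which it was tested.

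**Figure D3:**
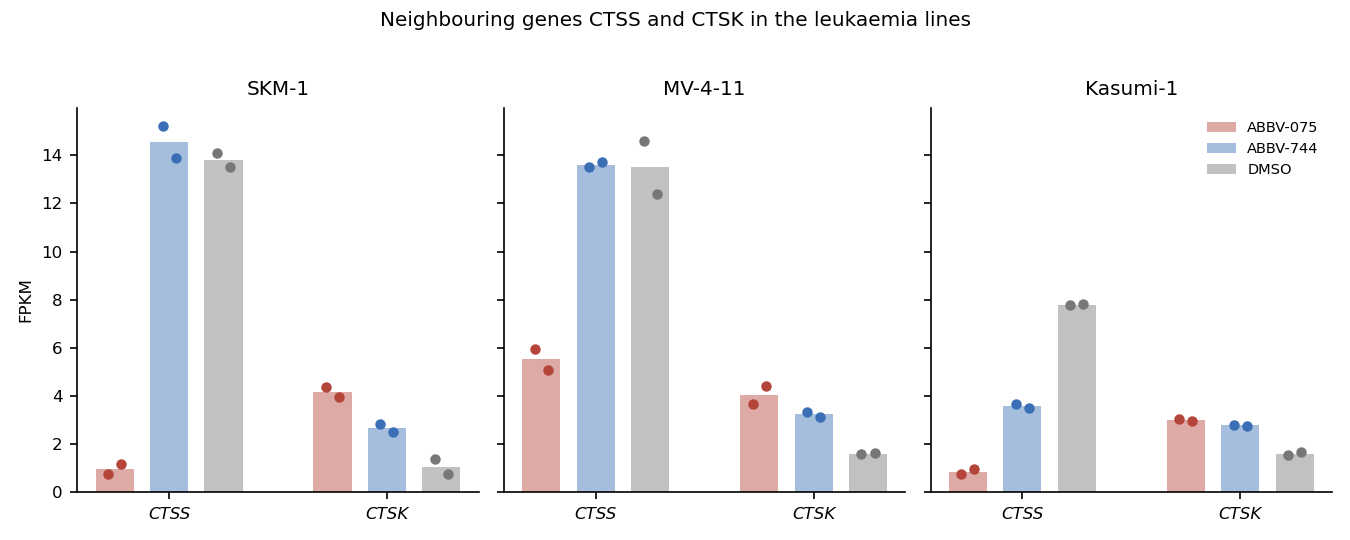
FPKM of CTSS and CTSK (vertical axis) in the 3 AML lines under ABBV-075, ABBV-744 and DMSO; bars are the mean of 2 libraries and points the libraries. CTSS lies lowest with ABBV-075 in each line, at 0.977, 5.52 and 0.852 FPKM on average in SKM-1, MV-4-11 and Kasumi-1; CTSK lies highest with it, with means of 4.17, 4.05 and 2.996 FPKM.

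CTSH fell with ABBV-075 in the 3 AML lines. In SKM-1 it had 4.55 and 4.46 FPKM with ABBV-075 and 10.4 and 9.21 FPKM with ABBV-744, against 15.3 and 11.5 FPKM in DMSO. In MV-4-11 it had 3.89 and 4.03 FPKM with ABBV-075 and 5.50 and 5.76 FPKM with ABBV-744, against 9.32 and 10.9 FPKM in DMSO. In Kasumi-1 it had 2.12 and 1.11 FPKM with ABBV-075 and 1.54 and 1.92 FPKM with ABBV-744, against 2.81 and 3.30 FPKM in DMSO. Treated and DMSO libraries did not overlap in any AML line, as held for 50.6% to 77.8% of all genes in these comparisons. The log2 difference with ABBV-075 was -1.38 in SKM-1, -1.16 in MV-4-11 and -0.66 in Kasumi-1 (limma, adjusted p = 4.02e-06, 4.74e-05 and 0.00364 in that order). With ABBV-744 CTSH fell by 0.74 in MV-4-11 and fell by 0.57 in Kasumi-1 (limma, adjusted p = 0.00917 and 0.0230), and the difference of -0.40 in SKM-1 missed the threshold (adjusted p = 0.0895) and passed it after scaling to the non-mitochondrial sum (-0.56, adjusted p = 0.0119), after median centring (-0.49, adjusted p = 0.0297) and with SKM-1 DMSO replicate 2 left out (-0.60, adjusted p = 0.0364). The Kasumi-1 call with ABBV-075 was lost without its replicate 2 (-0.37, adjusted p = 0.0818). With ABBV-744 the MV-4-11 call was lost without DMSO replicate 2 (adjusted p = 0.107) or ABBV-744 replicate 1 (0.0625), and the Kasumi-1 call without either DMSO library or ABBV-744 replicate 1 (0.0534 to 0.162). In NCI-H1299 CTSH had 1.25 and 1.37 FPKM with ABBV-075 and 1.26 and 0.928 FPKM with ABBV-744, against 1.75 and 1.34 FPKM in DMSO, and was not called.

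CTSB rose with ABBV-075 in the 3 AML lines. It had 106 and 92.2 FPKM with ABBV-075 and 64.1 and 68.7 FPKM with ABBV-744 in SKM-1, against 53.6 and 33.8 FPKM in DMSO. In MV-4-11 the levels were 111 and 114 FPKM with ABBV-075 and 81.2 and 86.5 FPKM with ABBV-744, against 58.1 and 71.5 FPKM in DMSO. In Kasumi-1 they were 35.7 and 25.4 FPKM with ABBV-075 and 28.1 and 27.7 FPKM with ABBV-744, against 19.5 and 17.4 FPKM in DMSO. Every treated library of the AML lines lay above its DMSO pair, and 50.6% to 77.8% of all genes did not overlap DMSO there. The log2 difference with ABBV-075 was 1.20 ± 0.18 in SKM-1, 0.80 in MV-4-11 and 0.68 in Kasumi-1 (SE 0.18 each, limma, adjusted p = 3.69e-05, 0.00238 and 0.00484 in that order), and 0.06 in NCI-H1299 (95% interval -0.33 to 0.45). With ABBV-744 CTSB rose by 0.63 in SKM-1 and by 0.57 in Kasumi-1 (limma, adjusted p = 0.0189 and 0.0333). Without Kasumi-1 ABBV-075 replicate 1 the call there was lost (0.44, adjusted p = 0.0675). The SKM-1 call with ABBV-744 was lost without DMSO replicate 2 (0.30, adjusted p = 0.220) or either ABBV-744 library, was 0.95 without DMSO replicate 1, and the Kasumi-1 call was lost without any of its 4 libraries (adjusted p = 0.0780 to 0.177).

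CTSA and CTSD, which are not related in sequence family, both rose with ABBV-075 in SKM-1. CTSA had 55.1 and 48.9 FPKM with ABBV-075 and 26.5 and 28.0 FPKM with ABBV-744, against 25.5 and 14.1 FPKM in DMSO, and rose by 1.40 ± 0.20 on the log2 scale with ABBV-075 (SE, limma, adjusted p = 2.21e-05). NEU1, the sialidase that CTSA shields, rose by 1.97 in the same comparison. The CTSA difference was not called in the other lines, at 0.31 in MV-4-11 (95% interval -0.12 to 0.74), 0.09 in Kasumi-1 (-0.35 to 0.52) and 0.06 in NCI-H1299 (-0.37 to 0.49), although a fit of MV-4-11 alone called it there (adjusted p = 0.0419). With ABBV-744 the SKM-1 difference was 0.49 (adjusted p = 0.0828), and it was called without SKM-1 DMSO replicate 1 (0.90, adjusted p = 0.000575) and without either Kasumi-1 ABBV-075 library (adjusted p = 0.0458). CTSA overlaps PLTP in the RefSeq annotation, and whether counting used strand is not given, so reads there cannot be assigned with certainty. PLTP differed by -0.44 in SKM-1 with ABBV-075 (limma, adjusted p = 0.0850) and rose by 1.17 in MV-4-11. CTSD overlaps PRADX and CTSK overlaps UBE2D3P3 in the same annotation, and the same limit holds for them.

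CTSD went in opposite directions in SKM-1 and Kasumi-1. In SKM-1 it had 162 and 118 FPKM with ABBV-075 and 69.2 and 84.6 FPKM with ABBV-744, against 69.7 and 67.7 FPKM in DMSO, and rose by 0.996 with ABBV-075 (SE 0.26, limma, adjusted p = 0.00413). In Kasumi-1 it had 42.0 and 18.5 FPKM with ABBV-075 and 68.4 and 78.0 FPKM with ABBV-744, against 118 and 91.1 FPKM in DMSO, and fell by 1.86 with ABBV-075 (limma, adjusted p = 2.23e-05). The ABBV-075 libraries did not overlap DMSO in either line (nor did 68.2% and 72.6% of all genes), although the Kasumi-1 pair differed by more than 2-fold. In MV-4-11 CTSD had 115 and 113 FPKM with ABBV-075, against 71.8 and 86.4 FPKM in DMSO (0.53, 95% interval -0.04 to 1.09), and in NCI-H1299 49.8 and 46.5 FPKM, against 51.1 and 48.0 FPKM (-0.04, -0.60 to 0.52). The SKM-1 call was lost without ABBV-075 replicate 1 (0.77, adjusted p = 0.0561), and the MV-4-11 difference was called in a fit of that line alone (adjusted p = 0.00824) and without either Kasumi-1 ABBV-075 library (0.0191).

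CTSZ fell with ABBV-075 in Kasumi-1 and NCI-H1299. In Kasumi-1 it had 48.5 and 30.6 FPKM with ABBV-075 and 57.4 and 67.5 FPKM with ABBV-744, against 95.6 and 84.1 FPKM in DMSO, and in NCI-H1299 3.97 and 4.11 FPKM and 5.28 and 6.04 FPKM, against 7.73 and 7.99 FPKM. In SKM-1 it had 89.5 and 71.6 FPKM with ABBV-075, which overlapped DMSO at 101 and 81.8 FPKM, and 126 and 140.3 FPKM with ABBV-744, which lay above it. With ABBV-075 the log2 difference was -1.20 in Kasumi-1 and -0.81 in NCI-H1299 (limma, adjusted p = 4.09e-05 and 0.00167), and with ABBV-744 CTSZ rose by 0.54 in SKM-1 and fell by 0.52 in Kasumi-1 (limma, adjusted p = 0.0362 and 0.0487). Both ABBV-744 calls lie near the threshold and were lost in several alternatives, the SKM-1 one without DMSO replicate 2 (0.39, adjusted p = 0.209) or either ABBV-744 library and after scaling to the non-mitochondrial sum (0.37, adjusted p = 0.114), the Kasumi-1 one without any of its 4 libraries (adjusted p = 0.0734 to 0.273).

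CTSC, whose targets are the granule proteases, was called in 1 comparison with DMSO, NCI-H1299 with ABBV-075. With ABBV-075 it had 106 and 112 FPKM in SKM-1, against 161 and 99.0 FPKM in DMSO, 93.1 and 88.9 FPKM in MV-4-11, against 81.2 and 76.5 FPKM, and 131 and 136 FPKM in Kasumi-1, against 156 and 163 FPKM. None of these differences was called (-0.21, 0.21 and -0.25 on the log2 scale). In NCI-H1299 it had 29.2 and 30.3 FPKM with ABBV-075 and 35.2 and 32.4 FPKM with ABBV-744, against 46.4 and 44.3 FPKM in DMSO, and fell by 0.59 with ABBV-075 (limma, adjusted p = 0.00565). Of 4 tested genes in the list of serine proteases that cathepsin C activates, 3 fell with ABBV-075 in SKM-1 (29.2% of all genes fell), 2 in MV-4-11 (22.1%) and 4 in Kasumi-1 (32.6%). In these lines 0 rose (32%, 20.3% and 24.7% of all genes). With ABBV-744, 3 fell in SKM-1 (12.5% of all genes), 1 in MV-4-11 (6.75%) and 0 in Kasumi-1 (15%), and of the 2 tested in NCI-H1299 0 were called with either compound. PRTN3 fell by 7.32 and ELANE fell by 6.28 in SKM-1 with ABBV-075, and CTSG, itself a cathepsin by name but a granule serine protease, had 12.1 and 10.1 FPKM with ABBV-075, against 168 and 205 FPKM in DMSO, in MV-4-11. CTSG differed more than 10-fold between the SKM-1 DMSO libraries, at 6.47 and 72.2 FPKM. It is also in the list of other cathepsin genes below, so its calls are counted in both lists. Without SKM-1 DMSO replicate 2 the CTSC difference in SKM-1 with ABBV-075 was -0.56 and called (adjusted p = 0.000149), and without replicate 1 it was 0.14 and not called. With ABBV-744 the SKM-1 difference of 0.23 was 0.58 and called without DMSO replicate 1 (adjusted p = 0.000205). Leaving out either SKM-1 DMSO library also made CTSC called with ABBV-075 in MV-4-11 (adjusted p = 0.0399) and Kasumi-1 (0.0104) and with ABBV-744 in NCI-H1299 (-0.41, adjusted p = 0.00354), with the same values as before.

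CTSF and CTSW, which share a branch of the cysteine cathepsin family, were called in 2 comparisons with DMSO between them, both CTSF with ABBV-075. CTSF had 14.1 and 12.5 FPKM with ABBV-075 in SKM-1, against 10.2 and 6.76 FPKM in DMSO, and rose by 0.61 (limma, adjusted p = 0.00444), a call lost without SKM-1 DMSO replicate 2 (0.34, adjusted p = 0.0787). In NCI-H1299 it had 17.2 and 15.9 FPKM, against 12.3 and 11.7 FPKM, and rose by 0.44 (adjusted p = 0.0394), a call lost without any of the 4 libraries (adjusted p = 0.0825 to 0.170), with a pseudocount of 0.1 FPKM and with no filter. In Kasumi-1 CTSF had 10.4 and 7.08 FPKM with ABBV-075, which overlapped DMSO at 10.2 and 11.2 FPKM. The difference of -0.28 was not called, and without ABBV-075 replicate 1 it was -0.53 and called (adjusted p = 0.0144). CTSW in MV-4-11 had 2.51 and 2.38 FPKM with ABBV-075 and 2.48 and 2.62 FPKM with ABBV-744, against 3.06 and 3.36 FPKM in DMSO. Its treated libraries lay below DMSO, and the differences of -0.29 (95% interval -0.59 to 0.01) and -0.25 (-0.55 to 0.05) were not called. Of all genes in MV-4-11, 77.8% did not overlap DMSO with ABBV-075 and 58% with ABBV-744. In MV-4-11 the T and NK cell markers, nearly all NKG7, summed to 6.93 to 7.02 FPKM with ABBV-075 and 13.4 to 15.7 FPKM with ABBV-744, against 33.7 to 43.7 FPKM in DMSO; CD3E and CD3D were near 0, and the part of these markers in the CTSW values was not tested. CTSW overlaps FIBP by 2 bases in the annotation; FIBP was at 58.6 and 65.8 FPKM in MV-4-11 DMSO and was not called there.

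**Figure D4:**
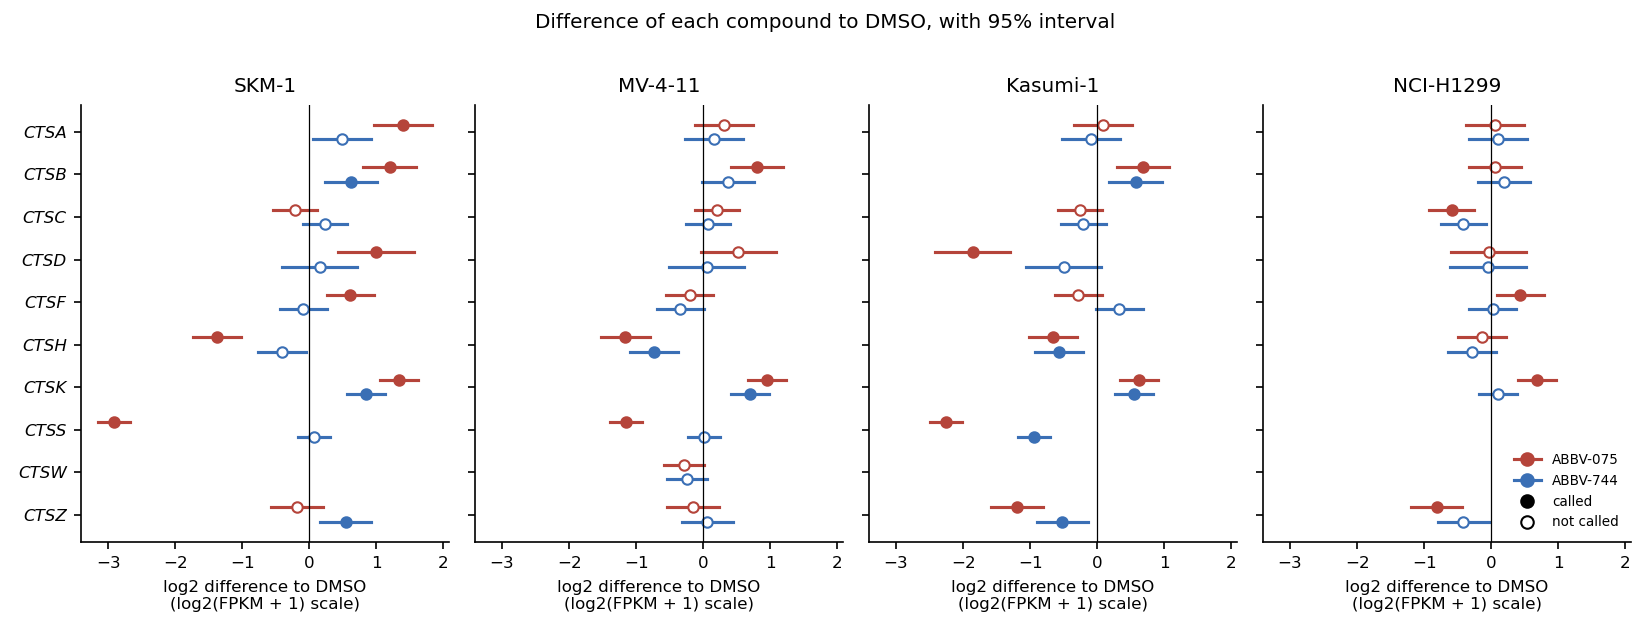
Log2 difference to DMSO (horizontal axis, log2(FPKM + 1) scale) of each tested cathepsin with ABBV-075 and ABBV-744 in 4 lines, with its 95% interval; filled points were called. CTSS with ABBV-075 lies farthest from 0, at -2.91 in SKM-1 and -2.25 in Kasumi-1, and CTSK is called to the right of 0 in each line with ABBV-075.

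ABBV-744 at 200 nM was set against ABBV-075 at 100 nM in 4 of the 12 comparisons within lines. In SKM-1, 4 of 9 cathepsins were higher with ABBV-744 than with ABBV-075 (22.7% of all genes) and 5 lower (21%). The 4 were CTSS, CTSH, CTSZ and CTSC, and the 5 were CTSA, CTSD, CTSF, CTSB and CTSK. Each of the 7 genes called against DMSO with ABBV-075 had a smaller difference to DMSO with ABBV-744. In MV-4-11, 1 of 10 was higher (12.5%), CTSS, and 0 lower (9.44%; CTSB became lower when libraries were centred on their median), and in Kasumi-1 4 of 9 were higher (21.2%), namely CTSS, CTSD, CTSZ and CTSF, and 0 lower (16.5%). In NCI-H1299, 0 of 8 were higher (18.6%) and 1 lower (16%), CTSK. The largest of these differences was CTSS in SKM-1 at 2.98 (SE 0.11, limma, adjusted p = 2.28e-11), followed by CTSD in Kasumi-1 at 1.36 (adjusted p = 0.000948) and CTSS in Kasumi-1 at 1.31. CTSK in MV-4-11 and Kasumi-1 did not differ beyond its spread, at -0.25 (95% interval -0.53 to 0.03) and -0.08 (-0.36 to 0.21). Without Kasumi-1 ABBV-075 replicate 2 the CTSD difference in Kasumi-1 was 0.79, and the CTSF and CTSZ calls there were lost (adjusted p = 0.143 and 0.155); without NCI-H1299 ABBV-075 replicate 1 the CTSK call there was lost (-0.47, adjusted p = 0.0502); without SKM-1 ABBV-075 replicate 1 the 9 calls in SKM-1 became 5, and fits of single lines called 2 cathepsins in each of SKM-1 and Kasumi-1.

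The response to ABBV-075 differed between lines for many genes, cathepsins among them. Counts of so few genes do not set the family apart from the shares of all genes given beside them. A moderated F test in limma called 8 of 8 tested members among the 4 lines (50.4% of all genes) and 6 of 9 among the 3 AML lines (45.6%), the 6 being CTSS, CTSD, CTSA, CTSZ, CTSF and CTSK. CTSH, at a mean of 1.55 FPKM in NCI-H1299 DMSO, had little room to fall in that line. CTSS (adjusted p = 3.26e-06) and CTSD (adjusted p = 6.56e-05) led the AML lines, and CTSB, CTSC and CTSH were not called there (adjusted p = 0.204, 0.155 and 0.0526). The response to ABBV-744 differed for 1 of 8 among the 4 lines (6.5%), CTSZ, and for 2 of 9 among the AML lines (6.78%), CTSS and CTSZ. Without SKM-1 DMSO replicate 1 these ABBV-744 counts were 6 and 5, and the 4-line count, which rests on CTSZ (adjusted p = 0.0476), moved in 22 of the 24 omissions of 1 library.

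The summed FPKM of the 10 genes was 543 and 464 with ABBV-075 and 476 and 500.1 with ABBV-744 in SKM-1, against 453 and 329 in DMSO. In Kasumi-1 it was 308 and 246 with ABBV-075 and 338 and 359 with ABBV-744, against 438 and 406 in DMSO, so the treated libraries lay below. In MV-4-11 it was 468 and 469 with ABBV-075 and 403 and 430.1 with ABBV-744, against 365 and 408, and in NCI-H1299 it lay between 200.3 and 218 in every library.

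The other genes of the lysosome came from lists named for their roles. Their counts are to be read against all genes tested, of which 32%, 20.3%, 24.7% and 20.6% rose and 29.2%, 22.1%, 32.6% and 26.5% fell with ABBV-075 in SKM-1, MV-4-11, Kasumi-1 and NCI-H1299, in that order. With ABBV-744, 14.9%, 4.61%, 8.69% and 1.4% rose and 12.5%, 6.75%, 15% and 3.95% fell. The median over all genes with ABBV-075 was 0.05, -0.01, -0.09 and -0.06 in the same order. With ABBV-075, lysosomal membrane and proton pump genes rose in 18 of 25 cases in SKM-1, 15 of 25 in MV-4-11, 9 of 24 in Kasumi-1 and 13 of 25 in NCI-H1299, and 2 fell, both in Kasumi-1 (CLCN7 and CD63). ATP6V0A1, a subunit of the proton pump that acidifies the lysosome, had 63.7 and 55.3 FPKM with ABBV-075, against 15.3 and 11.6 FPKM in DMSO, in SKM-1. The median of this list was 0.72, 0.53, 0.24 and 0.43 on the log2 scale in the 4 lines in that order. Of the other lysosomal hydrolases 18 of 34 rose and 4 fell in SKM-1, 14 of 36 rose and 7 fell in MV-4-11, 14 of 35 rose and 10 fell in Kasumi-1, and 15 of 37 rose and 3 fell in NCI-H1299, with medians of 0.54, 0.40, -0.05 and 0.44. In Kasumi-1 the number that fell lies near the share of all genes. PPT1, which removes fatty acids from proteins, fell in each line (-1.86 to -0.81), and SMPD1, the acid sphingomyelinase, rose in each, by 1.16 to 2.18 on the log2 scale. With ABBV-744 the pump and membrane list had 10 of 25 higher and 1 lower in SKM-1, 3 of 25 higher in MV-4-11, 3 of 24 higher in Kasumi-1 and 0 of 25 called in NCI-H1299, and the hydrolases had 14, 5, 6 and 1 higher and 0, 2, 2 and 1 lower in the same order of lines. The SKM-1 counts rest on the DMSO pair that stood apart and on the main fit. With ABBV-744 a fit of SKM-1 alone called 260 genes, against 3604. Scaling to the non-mitochondrial sum moved the share of called genes that were higher from 54.3% to 32.9%.

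Genes that bring cathepsins to the lysosome or switch lysosomal genes on were mixed. Among 9 mannose 6-phosphate sorting genes, 6 rose and 2 fell with ABBV-075 in SKM-1, 4 rose and 1 fell in MV-4-11, 2 rose and 2 fell in Kasumi-1, and 4 rose and 1 fell in NCI-H1299 (medians 0.59, 0.28, -0.10 and 0.27). SORT1, a sorting receptor, rose in each line (0.40 to 1.31), and NAGPA, the enzyme that uncovers the mannose 6-phosphate tag, fell in each (-1.90 to -0.78). Among the MiT transcription factors and their regulators, 6 of 9 rose and 1 fell in SKM-1, 2 and 2 of 8 in MV-4-11, 4 and 1 of 10 in Kasumi-1, and 2 and 0 of 7 in NCI-H1299 (medians 0.43, -0.01, 0.21 and 0.23), so that the MV-4-11 counts lie near the shares of all genes. TFE3 rose by 1.29 in SKM-1 and by 0.63 in MV-4-11 with ABBV-075. With ABBV-744 the sorting genes had 2, 2, 1 and 0 higher and 0 lower in SKM-1, MV-4-11, Kasumi-1 and NCI-H1299, and the MiT list 1, 1, 0 and 0 higher and 0, 1, 1 and 0 lower.

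The class II antigen loading genes, among which CTSS acts, fell with ABBV-075 in 5 of 8 cases in SKM-1, 6 of 8 in MV-4-11 and 4 of 6 in Kasumi-1, and 2 rose in each of these lines (medians -1.001, -1.10 and -1.02). CD74, the invariant chain that CTSS cuts, had 40.6 and 34.6 FPKM with ABBV-075, against 122 and 73.5 FPKM in DMSO, in SKM-1, and the HLA-DRA difference was -2.84 there, -2.69 in MV-4-11 and -1.69 in Kasumi-1. The 2 that rose were IFI30, a lysosomal thiol reductase, and SPPL2A, a membrane protease that removes the CD74 stub. HLA-DRA also fell with ABBV-744 (-1.91, -1.38 and -0.79 in the same order), where CTSS was called in Kasumi-1 alone. With ABBV-744, 3 of this list fell in each AML line, 2 rose in SKM-1, 1 in MV-4-11 and 1 in Kasumi-1; in NCI-H1299 both tested genes rose with ABBV-075 and 0 were called with ABBV-744. Of the osteoclast genes, among which CTSK is known, 0 rose with ABBV-075, and 2 of 3 tested fell in SKM-1, 2 of 2 in MV-4-11, 1 of 1 in Kasumi-1 and 1 of 2 in NCI-H1299. With ABBV-744, 1 osteoclast gene fell in SKM-1 and 0 were called in the other lines. Of all genes with ABBV-075, 29.2%, 22.1%, 32.6% and 26.5% fell and 32%, 20.3%, 24.7% and 20.6% rose in SKM-1, MV-4-11, Kasumi-1 and NCI-H1299. With ABBV-744, 12.5%, 6.75%, 15% and 3.95% fell and 14.9%, 4.61%, 8.69% and 1.4% rose in that order. ACP5 belongs to both the osteoclast list and the hydrolases, so where tested it is counted in each.

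Cathepsin inhibitors and the remaining cathepsins filled in the picture of the family. Of all genes with ABBV-075, 32%, 20.3%, 24.7% and 20.6% rose and 29.2%, 22.1%, 32.6% and 26.5% fell in SKM-1, MV-4-11, Kasumi-1 and NCI-H1299. With ABBV-744, 14.9%, 4.61%, 8.69% and 1.4% rose and 12.5%, 6.75%, 15% and 3.95% fell in that order. Counts of so few genes beside these shares do not set either list apart. Of the inhibitors, 2 of 4 tested rose and 1 fell with ABBV-075 in SKM-1, 2 of 5 rose and 2 fell in MV-4-11, 0 of 3 rose and 1 fell in Kasumi-1, and 1 of 3 rose and 0 fell in NCI-H1299; with ABBV-744, 2 rose in SKM-1, 1 fell in MV-4-11 and 0 were called in the other 2 lines. CSTB, a cytosolic cystatin, had 167 and 193 FPKM with ABBV-075 and 143 and 136 FPKM with ABBV-744, against 80.9 and 38.7 FPKM in DMSO, in SKM-1. CST7, a cystatin of immune cells, fell in MV-4-11 to 0.0815 and 0.174 FPKM with ABBV-075 and to 0.367 and 0.521 FPKM with ABBV-744, against 15.6 and 16.9 FPKM in DMSO. SERPINB1, counted in this list although it inhibits the serine proteases of granules, rose with ABBV-075 by 2.18 in SKM-1, 0.73 in MV-4-11 and 1.54 in NCI-H1299. CST3, the main secreted cystatin, fell by 1.02 in Kasumi-1 with ABBV-075 and was not called elsewhere, and CSTA fell with ABBV-075 in SKM-1 (-0.82) and MV-4-11 (-0.73). Of 5 other cathepsin genes, 2 of 4 tested rose and 1 fell with ABBV-075 in SKM-1, 1 of 3 rose and 2 fell in MV-4-11, 1 of 4 rose and 2 fell in Kasumi-1, and 0 of 4 rose and 1 fell in NCI-H1299; with ABBV-744, 2 fell in SKM-1, 1 in MV-4-11, 0 in Kasumi-1 and 1 in NCI-H1299, and 0 rose. CTSL, listed under its older symbol CTSL1, had its highest levels in NCI-H1299, with 38.6 and 36.6 FPKM with ABBV-075 and 42.0 and 37.6 FPKM with ABBV-744, against 53.6 and 56.4 FPKM in DMSO, and fell with both compounds (-0.54 with ABBV-075 and -0.46 with ABBV-744). In the AML lines it was at most 3.44 FPKM. CTSV, listed as CTSL2, rose in Kasumi-1 with ABBV-075 to 4.22 and 4.17 FPKM, against 0.459 and 0.266 FPKM in DMSO, and CTSE stayed at or below 0.169 FPKM in every library.

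**Figure D5:**
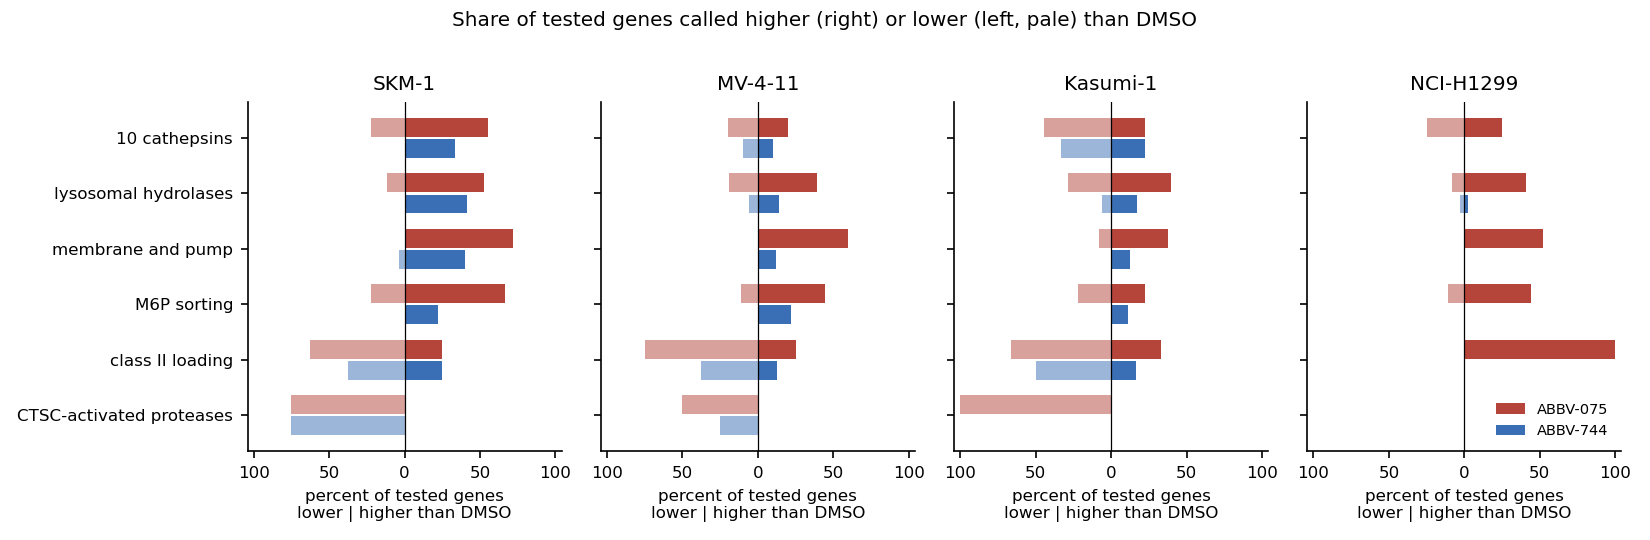
Percent of tested genes called higher (right, full colour) or lower (left, pale) than DMSO with ABBV-075 and ABBV-744 for the 10 cathepsins and 5 lists in 4 lines. Membrane and pump genes point right with ABBV-075 in each line, at 18 of 25 in SKM-1, and the class II bar of NCI-H1299 rests on 2 tested genes.

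Genes whose pattern was most like a cathepsin were found by Pearson's r over the 24 libraries after centring each line on its mean, as a description. BTK, SLA and DOK2, which act in signalling of blood cells, were most like CTSS (r = 0.981, 0.973 and 0.972), among 10786 candidates; 10179 for the genes tested in 4 lines and 12466 for CTSW. HIST1H1C, a linker histone, was most like CTSK (0.963), HDAC11 most like CTSB (0.957), USP22 most like CTSA (0.959) and MSN most like CTSZ (0.951). CELSR3 was most like CTSD (0.912), with the lysosomal tetraspanin CD63 close behind (0.903), DERL3 most like CTSH (0.928), HNRNPK most like CTSC (0.860), KLC4 most like CTSF (0.854) and FAHD2A most like CTSW (0.849). The next genes, with r between 0.808 and 0.957, were PHC2 and MPRIP for CTSA, RHOC and BRD1 for CTSB, MAP3K5 and PELO for CTSC, MAP7D1 for CTSD, FAM134A and CLSTN3 for CTSF, CTDSPL and EIF4EBP1 for CTSH, WDR11 and CDS2 for CTSK, RFXANK and AGT for CTSW, and SIRPA and LSM4 for CTSZ. Among the members themselves CTSB and CTSK were the most alike pair (0.854), followed by CTSA and CTSB (0.838) and CTSH and CTSS (0.797). Libraries of a group share their treatment, so these values follow group means as much as libraries. The r of CTSW also spans the lines in which it was not tested and stayed at or below 0.757 FPKM. That of CTSS spans NCI-H1299, where it stayed at or below 0.0705 FPKM.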

How the data were processed

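RNA sequencing of 24 libraries (4 lines, 3 treatments, 2 libraries a group) was deposited as 1 table of FPKM values per gene, made by the authors from poly-A selected RNA. The submitters' processing notes name DESeq2; the aligner, counter, genome build, annotation and strand setting: not given in the sources used here. Tiny values (0.215% of those above 0 lie below 1e-04) show that the FPKM are estimates, so depth is unknown and no count test was run.

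Values were analysed as log2(FPKM + 1) in limma 3.58.1 (R 4.3.3, statmod 1.5.0), with 12 group means, trend and robust moderation, 12 residual degrees of freedom, and genes kept at 1 FPKM or more in 2 or more libraries of the line (either line for DMSO comparisons, every line for F tests). Benjamini-Hochberg adjustment ran over all genes of a comparison, with 12 comparisons within lines, 6 between DMSO groups and 4 F tests, and 0.05 as threshold. Each group has replicate numbers that follow deposition order and pair nothing.

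The members and 9 gene lists were chosen with earlier results of these data known. Text names the 10 members, the other cathepsins and inhibitors, cell type markers, 3 BET-responsive genes and the 3 genes most like each member. Of each list it draws on up to 3 called genes in each direction with the largest change. Of genes beside members it names those next to CTSS and CTSK and those overlapping CTSA and CTSW. Other genes beside members were fitted as well and are not described. EPCAM, NKG7 and a few list genes were singled out after their values were seen. Promoters come from RefSeq (GRCh38.p14), searched with Python 3.11.15. Alternatives were 7 settings (pseudocount of 0.1 FPKM, no filter, filter on the line's mean, median centring, scaling to the non-mitochondrial sum, fits of the compared lines alone, no trend or robust moderation) and the omission of each library.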

Additional observations from a re-analysis of the deposited data

Results flagged for a closer look

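A moderated F test in limma found that the response of these genes differed between lines, and each is given here as the gap between the highest and the lowest log2 difference to DMSO. With ABBV-075 among the 4 lines the gap was 2.85 for CTSD, with 0.996 in SKM-1 and -1.86 in Kasumi-1, the 1 member called in opposite directions. It was 1.34 for CTSA and 1.14 for CTSB, both between SKM-1 (1.40 and 1.20) and NCI-H1299 (0.06 for each). CTSH had a gap of 1.24, with -0.14 in NCI-H1299 and -1.38 in SKM-1. In NCI-H1299 it had only 1.75 and 1.34 FPKM in DMSO. A fall as large as that in SKM-1 could not be measured there on the log2(FPKM + 1) scale. CTSZ had a gap of 1.04, with -0.16 in MV-4-11 and -1.20 in Kasumi-1. The gaps of CTSF (0.89), CTSC (0.80) and CTSK (0.72) were smaller, and CTSK was called higher in each line.

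CTSS was compared among the AML lines. Its gap was 1.76 with ABBV-075, between -1.15 in MV-4-11 and -2.91 in SKM-1, and 1.01 with ABBV-744, between 0.07 in SKM-1 and -0.94 in Kasumi-1. CTSZ had a gap of 1.06 with ABBV-744, between 0.54 in SKM-1 and -0.52 in Kasumi-1, and this F test lies close to its threshold (adjusted p = 0.0476). The cause of these differences was not tested.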

How the results depend on the processing

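Of 108 member values tested, 66 kept their call under every alternative run and 42 changed call under at least 1. No value changed sign where it was called, while 20 values that were not called turned in sign under at least 1 alternative. Counts of cathepsins called moved by over 1.5 times as follows. Fits of the compared lines alone gave 0 in SKM-1 with ABBV-744, 1 in Kasumi-1 and 2 in NCI-H1299 with it, and for ABBV-744 against ABBV-075 2 in SKM-1, 4 in MV-4-11, 2 in Kasumi-1 and 4 in NCI-H1299, and 1 for the ABBV-744 F test in AML lines. Median centring gave 2 in MV-4-11 and 2 in NCI-H1299 for ABBV-744 against ABBV-075, 8 for SKM-1 against Kasumi-1 in DMSO, and 0 (4 lines) and 1 (AML lines) for the ABBV-744 F tests. Without a filter Kasumi-1 with ABBV-744 gave 3 and the 4-line F test 2; a pseudocount of 0.1 FPKM gave 1 for the AML F test, and the non-mitochondrial sum 2 in NCI-H1299 for ABBV-744 against ABBV-075. The cause was not tested.

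Leaving out 1 library at a time, the counts with ABBV-744 ranged from 1 to 5 in SKM-1, 1 to 2 in MV-4-11, 1 to 6 in Kasumi-1 and 0 to 1 in NCI-H1299. For ABBV-744 against ABBV-075 they ranged from 5 to 9, 1 to 2, 2 to 4 and 0 to 3 in the same lines, for SKM-1 against Kasumi-1 in DMSO from 3 to 7, and for the ABBV-744 F tests from 0 to 6 (4 lines) and 1 to 5 (AML lines). Among all genes called in SKM-1 with ABBV-744, 54.3% were higher, against 32.9% after scaling to the non-mitochondrial sum, which moved the median of all genes from 0.05 to -0.10; in Kasumi-1 with ABBV-744 the share was 36.8%, against 49.97% after median centring. No paired analysis was possible because the numbers of the libraries were given in accession order and tie none of them together.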
